A study of Mus musculus with 50 samples.

Results

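Metallothioneins and their zinc-handling partners were followed in mouse kidney, liver and skin fibroblasts through 5 genes, of 24984 genes counted. The 5 genes were Mt1, Mt2, Mtf1, Slc30a1 and Slc39a14. They were taken by name from the gene counts and were chosen by their RNA values in these same libraries, so their RNA differences are given as a description with no test. Their chromatin peaks and the other zinc genes were not used for the choice and were tested. RNA-seq covered 38 libraries in 10 groups, and ATAC-seq, which marks open chromatin, covered 12 libraries in 4 groups. All mice were C57BL/6, and the untreated ones were female per the methods of the study. Untreated young mice were 2.5 months old and untreated old mice were 23 to 25 months old, with 4 RNA libraries and 3 ATAC libraries for each age in kidney and in liver. A second set of kidneys and livers, from mice aged 20 to 21 months, was labelled with the treatment DMSO (a solvent) or 3C, with 4 RNA libraries per tissue and treatment. Skin fibroblasts, which the labels call P9, received DMSO or 3C, with 3 RNA libraries each. The labels do not define 3C and name no separate cultures, so the spread within the fibroblast groups may be technical.

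Metallothioneins are small cysteine-rich proteins that bind zinc and copper, and Mt1 and Mt2 are the 2 forms made in most tissues. Free zinc activates the transcription factor Mtf1, which binds metal response elements in the promoters of the metallothionein genes and of Slc30a1. Slc30a1 encodes ZnT1, the transporter that moves zinc out of cells, and Slc39a14 encodes ZIP14, which moves zinc, iron and manganese into cells. In the liver, inflammation raises the metallothioneins and ZIP14 through IL-6, and glucocorticoids raise the metallothioneins as well.

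In the GRCm38 annotation, Mt2 occupies chr8:94172664-94173568 and Mt1 lies on the same strand at chr8:94179082-94180327, 5514 bases further on. Mtf1 is at chr4:124802104-124849800, Slc30a1 at chr1:191906767-191913247 and Slc39a14 at chr14:70303469-70351425 on the minus strand. Promoter windows were matched in RefSeq for 4 of the 5 genes, and 3 of them are shown. The window of Mtf1 is not shown, since it lies inside the annotated transcript. Capitals mark the core of the metal response element, TGCACNC or TGCGCNC, on either strand. Each window is written 5′ to 3′ on the plus strand, ends before the annotated transcript and comes from RefSeq on GRCm38. The Mt1 window covers chr8:94178839-94179081, the Mt2 window chr8:94172368-94172617 and the Slc30a1 window chr1:191906531-191906766.

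Mt1 promoter: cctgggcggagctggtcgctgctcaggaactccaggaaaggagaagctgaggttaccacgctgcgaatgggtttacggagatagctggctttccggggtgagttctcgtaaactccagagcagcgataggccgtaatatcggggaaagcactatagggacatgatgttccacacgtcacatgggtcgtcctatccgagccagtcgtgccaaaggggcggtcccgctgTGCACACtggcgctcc
Mt2 promoter: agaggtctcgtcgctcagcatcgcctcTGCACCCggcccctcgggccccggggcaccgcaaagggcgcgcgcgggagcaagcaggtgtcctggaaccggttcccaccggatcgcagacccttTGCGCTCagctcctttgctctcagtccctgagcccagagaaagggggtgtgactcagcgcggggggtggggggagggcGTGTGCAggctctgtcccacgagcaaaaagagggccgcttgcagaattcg
Slc30a1 promoter: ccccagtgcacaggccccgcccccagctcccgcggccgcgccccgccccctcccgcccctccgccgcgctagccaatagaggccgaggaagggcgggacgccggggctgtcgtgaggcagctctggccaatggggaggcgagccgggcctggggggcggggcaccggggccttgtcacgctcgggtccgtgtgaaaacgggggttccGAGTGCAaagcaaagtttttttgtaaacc

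The Mt2 window held 3 cores, and the Mt1 and Slc30a1 windows held 1 each. Among 32851 RefSeq promoters, 21.4% held at least 1 core in the 250 bases before the start and 1.26% held at least 3. The annotated Mt1 start lies upstream of most of its cores. Within 250 bases on each side of the start, Mt1 had 5 cores and Mt2 had 7, numbers reached by 0.493% and 0.0517% of the promoters. Slc30a1 had 2 cores in the same stretch, as 13.7% of promoters did or exceeded, and Mtf1 had 0. The Mt2 window also held 1 AP-1 site (TGANTCA, in 6.75% of promoters), which overlapped its 1 match to the antioxidant response element (TGACNNNGC, in 10.2%). The Slc30a1 window held 1 match to the antioxidant response element. The Mt1, Mt2 and Slc30a1 windows held no E-box (CACGTG, in 6.02%). These are letter matches only.

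RNA levels below are read counts scaled to the same total of reads in genes (CPM), from 14.24 M to 43.7 M reads in genes per library. Differences are log2 fold changes from edgeR with TMM scaling and are given with their standard error (SE). Kidney, liver and fibroblast markers were high in the libraries of their own label, with summed marker levels of at least 18400 CPM in kidney, 81600 CPM in liver and 17800 CPM in fibroblasts. One library stood apart: in old kidney 2 the 8 liver markers reached 3.16% (median) of what old liver had, against 0.0333% to 0.0918% in the other untreated kidneys. In DMSO and 3C kidneys they reached 0.0406% to 0.109% of what DMSO liver had. The kidney age values of the 5 genes and of the other genes named are therefore also given without it. No pair of replicates agreed within sampling noise.

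Mt1 and Mt2 were higher in old than in young animals in both tissues, and by more in liver. In young kidney, Mt1 stood at 109.7, 133.9, 105.3 and 138.3 CPM in replicates 1 to 4. In old kidney it stood at 222.9, 186.9, 338.0 and 243.1 CPM. The 2 ages did not overlap, and the lowest old kidney was replicate 2, the library with liver RNA. The mean went from 121.8 ± 16.7 CPM to 247.7 ± 64.5 CPM (SD, n = 4 each), a log2 fold change of 1.0 (SE 0.21). It was 1.14 without old kidney 2, the highest value with 1 library left out, and 0.77 without old kidney 3, the lowest.

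Mt2 differed by more than Mt1 in kidney. Young kidney had 42.4, 43.0, 34.7 and 48.7 CPM of Mt2. Old kidney had 119.0, 112.8, 226.8 and 181.8 CPM. No old library came near a young one, and the log2 fold change was 1.90 (SE 0.25), or 2.06 without old kidney 2. Of the 5 genes, Mt1 and Mt2 were the 2 whose ages did not overlap in kidney, where the same was true of 17.3% of the 14495 genes tested.

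In liver, young animals had 30.8, 38, 43.5 and 71.2 CPM of Mt1 in replicates 1 to 4. Old animals had 1382, 208.0, 1695 and 183.0 CPM. The old livers thus formed 2 levels, with replicates 1 and 3 far above replicates 2 and 4, while even the lowest old liver exceeded every young one. The log2 fold change was 4.24 (SE 0.79), with a range of 3.77 to 4.66 when 1 library was left out. For Mt2, the young livers had 6.34, 13.4, 21.1 and 28.8 CPM. The old livers had 1268, 165.0, 1909 and 142.7 CPM of Mt2. The same 2 old livers were high for both genes, and the log2 fold change of Mt2 was 5.62 (SE 0.98, range 5.02 to 6.11 with 1 library left out). Mt1, Mt2 and Slc30a1 were the 3 genes of the 5 whose ages did not overlap in liver, against 9.18% of the 12537 genes tested. Mt1 and Mt2 were among the values by which the 5 genes were chosen, so nothing is read from these shares.

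**Figure D1:**
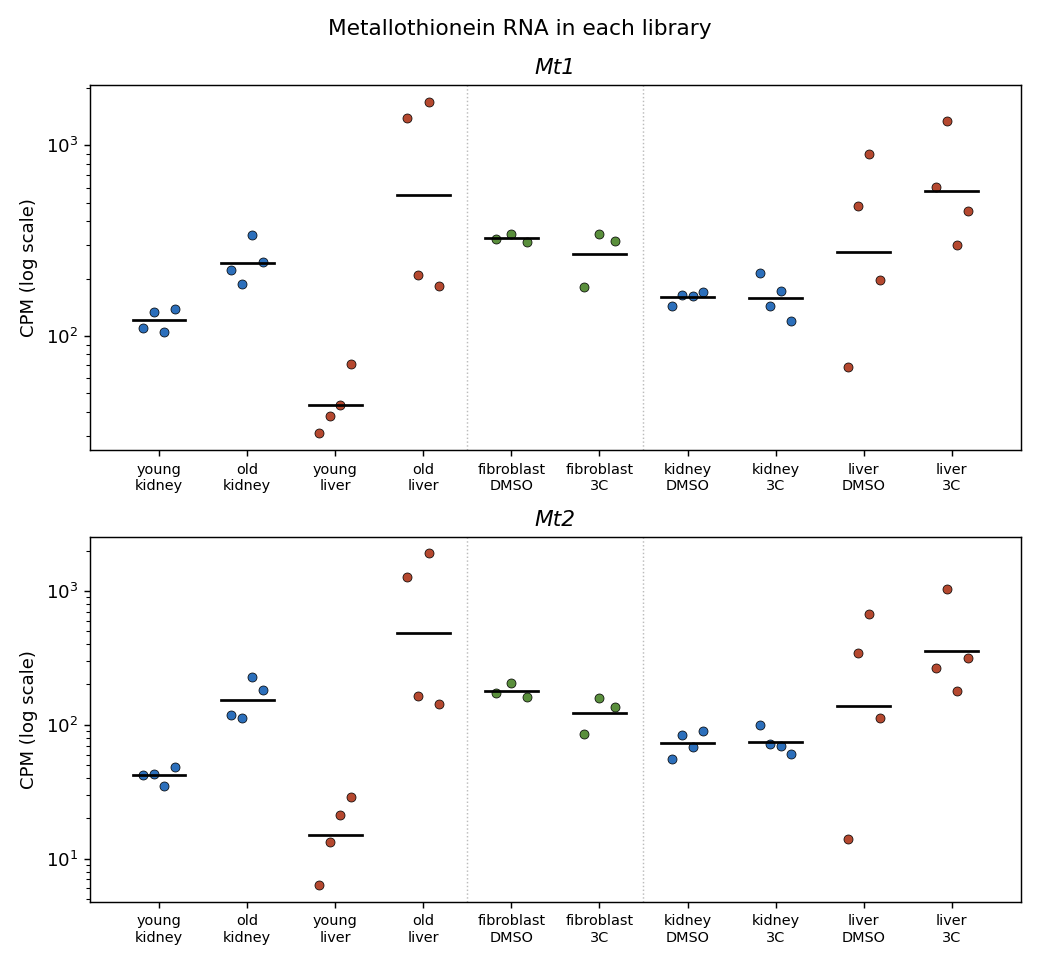
Level of Mt1 and Mt2 (CPM, log axis) in each of the 38 RNA libraries, by group. Points are libraries in replicate order, bars are geometric means, and dotted lines separate the untreated mice, the fibroblasts and the DMSO or 3C mice. Old livers 1 and 3 lie between 1268 and 1909 CPM and old livers 2 and 4 between 142.7 and 208.0 CPM, while young livers reach at most 71.2 CPM.

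The balance between the 2 metallothioneins differed by age as well. Each ratio compares reads of the 2 genes within a library and does not depend on library scaling. Young kidney had 0.321 to 0.386 reads of Mt2 per read of Mt1, and old kidney had 0.534 to 0.748. Young liver had 0.206 to 0.484 and old liver had 0.780 to 1.13. Neither tissue showed overlap between the ages. DMSO and 3C livers ran from 0.205 to 0.740 and from 0.442 to 0.767. The lowest of these, DMSO liver 1, was also the DMSO liver with the least metallothionein RNA. In fibroblasts the ratio was 0.515 to 0.601 with DMSO and 0.436 to 0.477 with 3C, with no overlap. In DMSO and 3C kidneys the ranges of 0.391 to 0.528 and 0.402 to 0.501 overlapped. The counting ignored strand, and 73.5% of the exonic bases of Mt2 overlap exons of Gm45774, a gene with no row of its own in the counts. Reads of the 2 genes cannot be told apart there.

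Across libraries the 2 genes moved together. After the mean of each of the 10 groups was subtracted, log2 CPM of Mt1 and Mt2 correlated with r = 0.967 over the 38 libraries, 0.972 over the 16 liver libraries and 0.886 over the other 22. The points share library scaling, so this is a description only.

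The zinc sensor Mtf1 showed no separation by age. Young kidneys had 29.9, 28.4, 20.2 and 16.3 CPM, and old kidneys had 17.0, 25.1, 14.9 and 19.6 CPM. The ranges overlapped and the log2 fold change was −0.34 (SE 0.19), or −0.46 without old kidney 2. Young livers had 11.2, 17.5, 12.1 and 8.43 CPM, and old livers had 8.31, 15.5, 14.8 and 15.4 CPM, with a log2 fold change of 0.07 (SE 0.21). Old liver 1, the library with the second highest Mt1, had the lowest Mtf1 of the old livers.

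For the exporter Slc30a1 the age differences had opposite signs in the 2 tissues. Young kidneys had 73.6, 71.2, 58.2 and 56.0 CPM and old kidneys had 52.6, 68.7, 42.7 and 56.1 CPM. These ranges overlapped, with a log2 fold change of −0.27 (SE 0.13) that was −0.36 without old kidney 2. Young livers had 24.5, 17.3, 22.0 and 19.2 CPM and old livers had 25.8, 37.8, 41.4 and 26.1 CPM. The lowest old liver was only just above the highest young one, at a log2 fold change of 0.59 (SE 0.20). The 2 old livers with the most Slc30a1, replicates 2 and 3, were not the 2 with the most Mt1, replicates 1 and 3. The fitted difference between the age effects, liver minus kidney, was 3.26 for Mt1, 3.75 for Mt2, 0.45 for Mtf1, 0.90 for Slc30a1 and 0.95 for Slc39a14. Without old kidney 2 these were 3.08, 3.54, 0.51, 0.93 and 0.92.

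The importer Slc39a14 was several times higher in liver than in kidney at both ages. Young kidneys had 40.7, 39.8, 49.0 and 33.1 CPM and old kidneys had 40.8, 43.9, 30.2 and 41.9 CPM. The log2 fold change in kidney was −0.09 (SE 0.14), or −0.11 without old kidney 2. Young livers had 120.6, 178.6, 146.2 and 77.5 CPM and old livers had 165.1, 188.2, 386.0 and 216.4 CPM. The ages overlapped in liver, and the log2 fold change of 0.82 (SE 0.29) went to 0.50 without old liver 3.

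**Figure D2:**
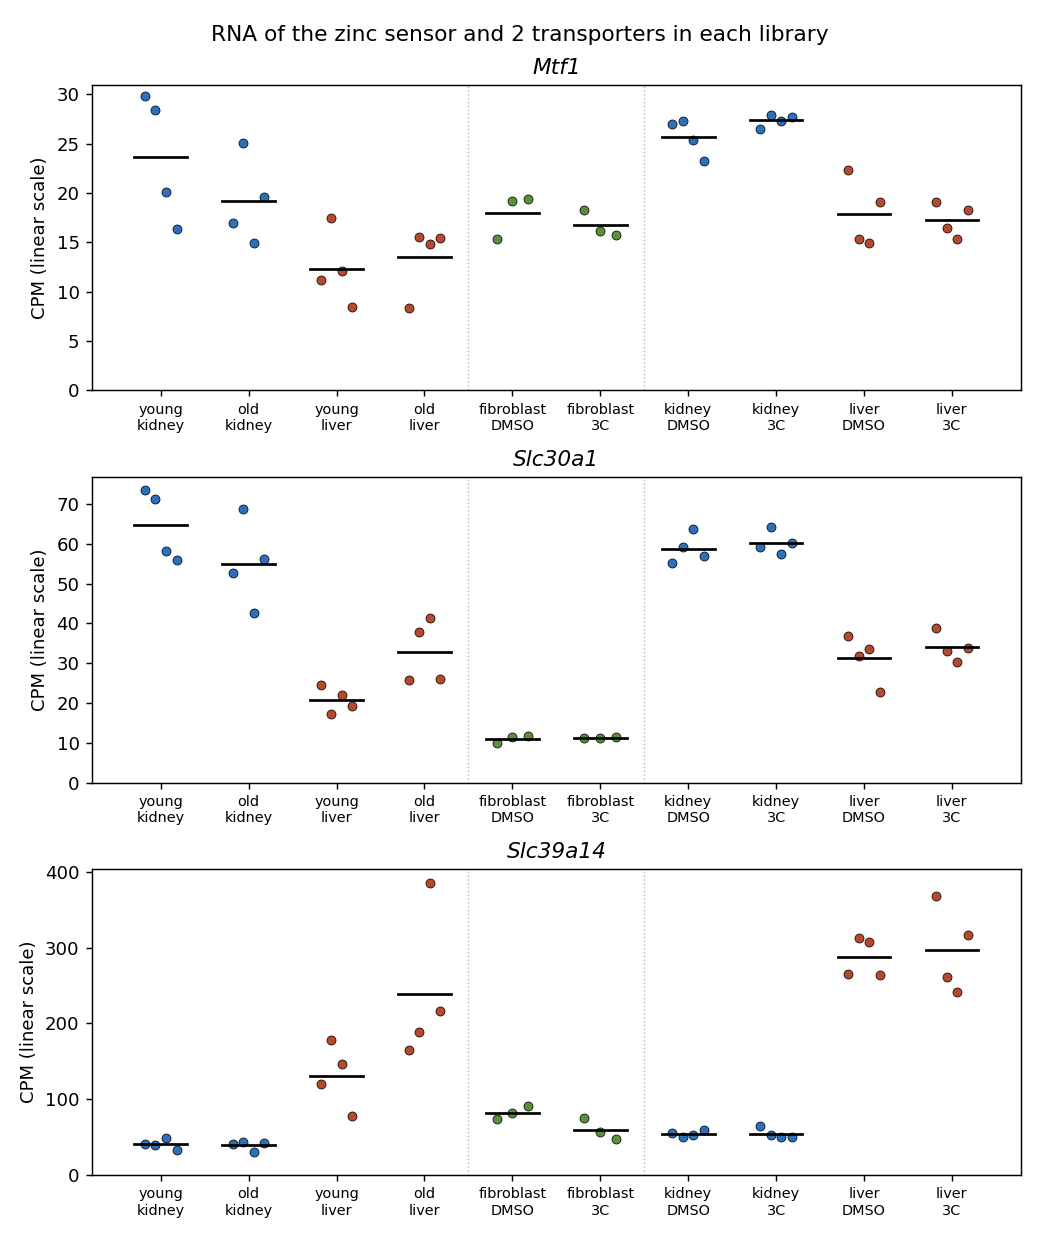
Level of Mtf1, Slc30a1 and Slc39a14 (CPM, linear axis) in each of the 38 RNA libraries, by group. Points are libraries in replicate order and bars are group means. Slc30a1 is highest in kidney, and Slc39a14 is highest in liver.

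Levels can be compared between genes only per length, so CPM was divided by the spliced length of the longest RefSeq transcript. In young kidney, Mt1 stood at 224.7 ± 30.8 CPM per kb, Mt2 at 75.9 ± 10.3, Slc30a1 at 12.4 ± 1.71, Slc39a14 at 8.25 ± 1.32 and Mtf1 at 3.11 ± 0.855 (SD, n = 4). In young liver, Mt1 stood at 84.7 ± 32.6 CPM per kb, Mt2 at 31.3 ± 17.5 and Slc39a14 at 26.5 ± 8.66. Slc30a1 followed in young liver with 3.96 ± 0.605 CPM per kb and Mtf1 with 1.61 ± 0.499. Old liver had 1600 ± 1450 CPM per kb of Mt1 and 1567 ± 1563 of Mt2, so the SD was as large as the mean.

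In fibroblasts the log2 fold changes with 3C were below 0 for all 5 genes, and were farthest from 0 for Mt2 and Slc39a14. Mt2 had 172.7, 205.7 and 160.6 CPM with DMSO and 85.7, 158.8 and 136.9 CPM with 3C. All 3C libraries were below all DMSO libraries, the highest 3C value being just under the lowest DMSO value, and the log2 fold change was −0.54 (SE 0.21). It was −0.74 without 3C replicate 2 and −0.31 without 3C replicate 1. Mt2 was the 1 gene of the 5 without overlap, against 25.8% of the 13449 genes tested. Mt1 had 320.9, 342.1 and 311.8 CPM with DMSO and 179.6, 342.7 and 313.8 CPM with 3C. One 3C library was low and the other two were close to the DMSO values, for a log2 fold change of −0.26 (SE 0.22). Slc39a14 had 73.2, 81.9 and 91.5 CPM with DMSO and 75.2, 56.6 and 47.3 CPM with 3C, a log2 fold change of −0.52 (SE 0.15) with overlapping ranges. Slc30a1 ranged from 9.88 to 11.8 CPM and Mtf1 from 15.4 to 19.4 CPM over all DMSO and 3C libraries, with log2 fold changes of −0.01 (SE 0.15) and −0.15 (SE 0.14). The 6 macrophage markers summed to 69.5 to 86.0 CPM with DMSO and 43.7 to 60.9 CPM with 3C in the same libraries, and their part in these values was not tested.

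In kidney, 3C and DMSO values overlapped for all 5 genes, where 7.07% of the 14974 genes tested did not overlap. Mt1 had 143.1, 164.2, 162.1 and 169.2 CPM with DMSO and 214.3, 143.9, 172.1 and 120.4 CPM with 3C. The 3C kidneys spread more widely on both sides of the DMSO kidneys, and the log2 fold change was 0.06 (SE 0.15). That of Mt2 was 0.05 (SE 0.17), and those of Mtf1, Slc30a1 and Slc39a14 were 0.12 (SE 0.07), 0.07 (SE 0.06) and 0.03 (SE 0.10).

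In liver, the mean of Mt1 differed between the treatments by less than the SD within either, at 411.5 ± 368.9 CPM with DMSO and 673.4 ± 462.9 CPM with 3C (n = 4 each). With DMSO, Mt1 stood at 68.7, 481.1, 900.6 and 195.5 CPM in replicates 1 to 4, and with 3C at 601.5, 1343, 299.2 and 450.4 CPM. The DMSO livers thus ran from a value near those of young livers to one 13.1 times higher. Mt2 ran from 14.1 to 666.3 CPM with DMSO and from 179.0 to 1030.0 CPM with 3C, and the highest DMSO liver was 47.4 times the lowest. The log2 fold changes were 0.66 (SE 0.68) for Mt1 and 0.60 (SE 0.87) for Mt2. Without 3C liver 2 they fell to 0.08 and −0.22, and without DMSO liver 3 they reached 1.48 and 1.55. None of the 5 genes was free of overlap in liver, as 1.79% of the 13042 genes tested were. Mtf1, Slc30a1 and Slc39a14 had log2 fold changes of −0.02 (SE 0.13), 0.14 (SE 0.15) and 0.06 (SE 0.16).

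**Figure D3:**
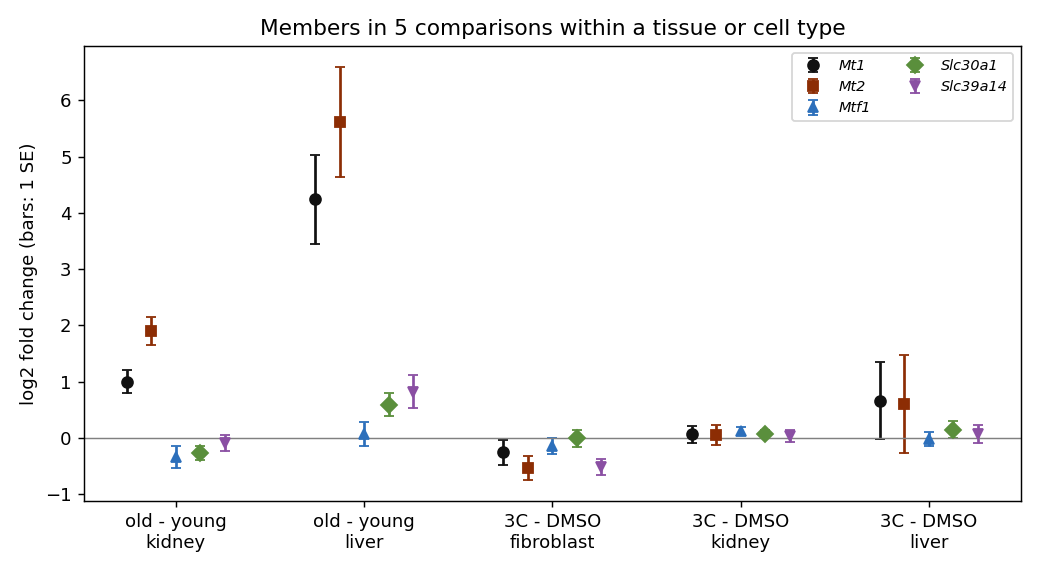
Log2 fold change of the 5 genes in the 5 comparisons within a tissue or cell type, old minus young or 3C minus DMSO. Points are edgeR estimates and bars are 1 SE. The metallothioneins in old liver are the points farthest from 0, at 4.24 and 5.62.

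Ranked by mean CPM, old liver was the highest of the 10 groups for both metallothioneins and young liver the lowest. For Mt1 the order was old liver, 3C liver, DMSO liver, DMSO fibroblasts, 3C fibroblasts, old kidney, 3C kidney, DMSO kidney, young kidney and young liver. The ranges of neighbours in this order overlapped except at the last 2 steps, from DMSO to young kidney and from young kidney to young liver. For Mt2, old kidney stood before 3C fibroblasts, the order was otherwise the same, and the same 2 steps were free of overlap. For Slc30a1 the 4 kidney groups came first, at means of 55.0 to 64.7 CPM, the 4 liver groups followed at 20.7 to 34.0 CPM and the fibroblasts came last, DMSO at 11 and 3C at 11.3 CPM. Here the ranges of neighbours were apart between the kidney and liver groups and between the liver and fibroblast groups. For Slc39a14 the 4 liver groups came first, at means of 130.7 to 297.2 CPM, and only DMSO and young kidney, among neighbours, were free of overlap. For Mtf1 the means ran from 12.3 CPM in young liver to 27.4 CPM in 3C kidney, and only 3C fibroblasts and old liver were. The 10 groups include 2 sets of libraries that were handled differently before counting, since the DMSO and 3C files record 0 reads aligned to several places, so levels set across the sets are given side by side only.

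Young kidney and young liver could be compared within 1 set, but the result depended on scaling. By CPM, Mt1, Mt2 and Slc30a1 were higher in kidney and Slc39a14 was higher in liver, with no overlap. TMM scaling placed the log2 fold change, kidney minus liver, at 0.29 (SE 0.27) for Mt1, 0.14 (SE 0.38) for Mt2, 0.55 (SE 0.15) for Slc30a1, −0.12 (SE 0.21) for Mtf1 and −2.75 (SE 0.20) for Slc39a14. With library totals alone the values were 1.41, 1.28, 1.64, 0.95 and −1.69, and the median of all genes moved from 0.078 to 1.158. Relative to that median, Slc39a14 and Mtf1 were below 0 under both scalings. With the replicate number as a block, under TMM, Mt1 was at 0.38 and Mt2 at 0.34. Under TMM the value of Mt2 also changed sign without young liver 1, to −0.15. In all, 80% of the 14057 genes tested did not overlap between the 2 tissues in CPM, and 4 of the 5 genes were among them.

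The other zinc genes counted were 24, namely 2 metallothioneins, 9 ZnT transporters and 13 ZIP transporters. The 2 metallothioneins, Mt3 and Mt4, summed to 0.874 to 2.35 CPM in young kidney and had 0 reads in young and old liver, against 140.0 to 187.0 CPM of Mt1 and Mt2 in young kidney. The quasi-likelihood test of edgeR was run over all genes, and a gene was called where its adjusted p (Benjamini-Hochberg) was below 0.05 and its fold above 2 or below 0.5. In kidney with age, 0 of the 18 that passed the filter on low counts were called, while 5.68% of all genes were called higher and 0.407% lower. At an unadjusted p under 0.05 there were 5 of the 18, where 30.1% of all genes were, and DESeq2 called 1 of them and 1187 genes in all. All 6 ZnT exporters tested had log2 fold changes below 0 (median −0.29), 4 of them at an unadjusted p under 0.05, and none was called. Without old kidney 2, 5 of the 6 were below 0 and Slc30a6 was at 0.04. The median over all genes was 0.02. The 8 kidney markers summed to 28100 to 33200 CPM in young and 21900 to 29800 CPM in old kidney. None of the 8 was called, though Lrp2, a receptor of the proximal tubule, was called lower without old kidney 2 (log2 fold change −1.06, SE 0.23, edgeR adjusted p = 0.0134), and their part in the ZnT values was not tested. Slc30a2, named after its values were seen, averaged 35.8 CPM in young and 23.2 CPM in old kidney (log2 fold change −0.65, SE 0.17, edgeR adjusted p = 0.0405) and did not reach the fold required, nor did it without old kidney 2 (−0.59). The gene that DESeq2 called was Slc39a4, a zinc importer known from intestinal uptake, at 1.48, 0.366, 0.983 and 1.01 CPM in young kidney and 1.67, 5.66, 2.06 and 3.04 CPM in old kidney. Its log2 fold change was 1.65 (SE 0.48, edgeR adjusted p = 0.0522), and its highest value was in old kidney 2, the library with liver RNA. Without that library the log2 fold change was 1.24 (SE 0.46, edgeR adjusted p = 0.0736). Every old kidney was above every young one for Slc39a4. In young liver it stood at 50.3 to 67.0 CPM, and the part of liver RNA in its kidney values was not tested.

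In liver with age, 1 of 17 other zinc genes was called, where 1.69% of all genes were called higher and 0.439% lower. Slc39a5, an importer of the basolateral membrane, had 2.58, 0.966, 3.19 and 4.15 CPM in young liver and 0.437, 0.262, 0.0992 and 0.730 CPM in old liver. Every old liver was below every young one, at a log2 fold change of −2.91 (SE 0.62, edgeR adjusted p = 0.0357). The call held in 3 of the 8 fits that left out 1 library and was lost without young liver 1, 3 or 4 or old liver 2 or 3, while the log2 fold change ran from −3.36 to −2.53 over the 8 fits. In kidney, Slc39a5 was far more abundant and did not pass the test, at means of 108.0 CPM young and 106.4 CPM old (log2 fold change −0.05, SE 0.23, or 0.10 without old kidney 2). The age effect on Slc39a5 differed between the tissues, liver minus kidney, by −2.83 on the log2 scale (edgeR interaction test, adjusted p = 0.032), and that on Slc39a4 by −2.03 (adjusted p = 0.0354), in a test that 1.72% of all genes passed. With same-numbered kidney and liver libraries of an age as a block, neither passed (edgeR adjusted p = 0.0514 for Slc39a5 and 0.0571 for Slc39a4). Without old kidney 2 the difference was −3.03 for Slc39a5 (adjusted p = 0.0255) and −1.70 for Slc39a4 (adjusted p = 0.0503).

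With 3C, edgeR called 0 of the 16 other zinc genes tested in fibroblasts, where 1.23% of all genes were called higher and 0.632% lower. DESeq2 called 0 there too, and 0 had an unadjusted p under 0.05, while over all genes DESeq2 called 316 and 2714 had such a p. In kidney, edgeR called 0 of 19, with 0 at an unadjusted p under 0.05 and 0 by DESeq2, and 0% of all 14974 genes were called in either direction. In liver it called 0 of 18, with 1 at an unadjusted p under 0.05 and 0 by DESeq2, and again 0% of all 13042 genes were called. Over all genes in kidney, 1786 had an unadjusted p under 0.05 and DESeq2 called 5. In liver the numbers were 436 and 3. The 3C effect differed between kidney and liver for 0% of the 15526 genes in the interaction test.

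Between young kidney and young liver, 8 of 19 other zinc genes were called, 6 higher and 2 lower in kidney, against 25.7% and 16.9% of all genes. Library totals alone gave 12 higher and 2 lower. The exporter Slc30a2 averaged 35.8 CPM in kidney and had 0 reads in the 4 livers. Slc30a10, a manganese exporter of liver, averaged 57.6 CPM in liver and had 0 reads in the 4 kidneys. Slc39a4 was lower in kidney, with a log2 fold change of −7.10 (SE 0.32). Slc39a5, Slc39a10 and Slc39a13 were higher in kidney, with log2 fold changes of 4.20 (SE 0.37), 2.14 (SE 0.26) and 1.66 (SE 0.16).

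Genes of processes that meet the metallothioneins were read from 5 further lists. The acute phase list holds 11 genes that liver makes in response to IL-6 and related signals. In liver with age, 6 of its 11 members were called higher and 0 lower, against 1.69% and 0.439% of all genes. Lcn2, an iron-siderophore binding protein, averaged 12.0 CPM in young and 986.5 CPM in old liver (log2 fold change 6.37, SE 1.19, edgeR adjusted p = 0.0222). Orm2, an acute phase glycoprotein, went from 32.8 to 882.3 CPM and Steap4, a metalloreductase, from 84.1 to 449.5 CPM. The count was 0 when any 1 young liver was left out and 1 without old liver 3. In kidney with age, 3 of 8 were called higher and 0 lower, against 5.68% and 0.407% of all genes, namely Lcn2 (3.20 to 91.2 CPM), Socs3 (3.07 to 22.4 CPM), an inhibitor of cytokine signalling, and Saa3 (0.236 to 7.09 CPM), and all 3 were called without old kidney 2, at log2 fold changes of 4.92, 2.87 and 5.11.

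Of the copper genes, 1 of 11 was called with age in kidney, the copper-carrying ferroxidase Cp, which went from 88.6 to 280.2 CPM (log2 fold change 1.61, SE 0.21, edgeR adjusted p = 0.00168), and 0 of 11 in liver. Of the glucocorticoid-induced genes, 1 of 10 was called in kidney, Pdk4, which went down from 133.8 to 57.6 CPM and lost its call in 4 of 8 fits with 1 library left out, and 0 of 11 were called in liver. Of the oxidative and electrophile response genes, 0 of 7 were called in kidney and 1 of 7 in liver, the heme oxygenase Hmox1, which went from 20.5 to 52.2 CPM. Of the heat shock genes, 1 of 5 was called in kidney, Hspb1, which went from 27.0 to 64.6 CPM, and 0 of 5 in liver. Each of these counts is a single gene, in comparisons that called 5.68% of all genes higher and 0.407% lower in kidney and 1.69% higher in liver, and nothing is read from them. Cp, Pdk4 and Hspb1 were also called without old kidney 2, at log2 fold changes of 1.47, −1.31 and 1.42. The glucocorticoid count was 2 without that library, since Klf9, a transcription factor, was then called lower (log2 fold change −1.37, SE 0.26, edgeR adjusted p = 0.0085), against −0.99 (SE 0.34, adjusted p = 0.0861) with it. With 3C in fibroblasts, 2 of 5 acute phase genes were called, where 1.23% of all genes were called higher and 0.632% lower. Lbp was higher, a call that held in 2 of 6 fits with 1 library left out, and Saa3 was lower, a call that held in 4 of 6, and neither was called in a fit of all 38 libraries. There, 0 genes of the other 4 lists were called. With 3C in kidney and liver, 0 genes of the 5 lists were called, as were 0% of all genes. An unadjusted edgeR p under 0.05 was reached by 11.9% of all genes in kidney and 3.34% in liver. Heat shock genes reached it for 3 of 5 in kidney and 4 of 5 in liver, with all 5 log2 fold changes above 0 in both. Copper genes had 0 of 11 in both and oxidative response genes 0 of 7 in both. Glucocorticoid-induced genes had 3 of 10 and 2 of 11, and acute phase genes 2 of 8 and 3 of 11. No cause was tested. Between young kidney and young liver, 11 of 11 acute phase genes were called lower in kidney, and the other lists gave 1 higher and 5 lower of 11 copper genes, 2 higher and 6 lower of 11 glucocorticoid-induced genes, 1 higher of 5 heat shock genes and 0 of 7 oxidative response genes. These stand beside 25.7% of all genes called higher and 16.9% called lower, and that split moved with scaling, from 3618 higher and 2369 lower under TMM to 7802 and 1240 with library totals.

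Immune markers moved with age in the same libraries, in comparisons that called 5.68% of all genes higher in kidney and 1.69% in liver. Summed macrophage markers were 109 to 133 CPM in young and 352 to 718 CPM in old kidney, with 6 of 6 called higher. They were 246 to 347 CPM in young and 414 to 781 CPM in old liver, with 1 of 6 called higher. B and plasma cell markers rose with 5 of 5 called in kidney (5.55 to 10.8 CPM young, 371 to 549 CPM old) and 4 of 5 in liver (3.72 to 4.46 CPM young, 18.5 to 78.4 CPM old). Of the T cell markers, 2 of 3 were called higher in kidney and 0 of 2 in liver. Without old kidney 2 these 3 kidney counts were 6, 5 and 2 again. No marker of the macrophage and B cell lists was at 0 in every library of an age. Their part in the metallothionein levels was not tested. In bulk tissue, a change in the number of cells of a type and a change in RNA per cell cannot be told apart.

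Library by library, metallothionein RNA and the sum of acute phase RNA were high together in 3 livers, and in others the sum was near the young range while metallothionein RNA was above it. The 11 acute phase genes summed to 8530 to 11000 CPM in the 4 young livers, whose Mt1 and Mt2 together made 37.2 to 100.1 CPM. Old livers 1 and 3 had 35100 and 66500 CPM of acute phase RNA with 2650 and 3605 CPM of Mt1 and Mt2. 3C liver 2 was similar, with 48400 and 2373 CPM. Old livers 2 and 4 had 9990 and 11900 CPM of acute phase RNA, close to the young range, and 373 and 325.7 CPM of Mt1 and Mt2. The sum is carried by its most abundant genes: Lcn2 was at 72.4 and 90.8 CPM in old livers 2 and 4 against at most 23.2 CPM in young livers, and Orm2 at 89.6 and 107.0 CPM against at most 35.5 CPM. DMSO liver 3 had 1567 CPM of Mt1 and Mt2 beside 10900 CPM of acute phase RNA, and DMSO liver 1 had 82.7 CPM beside 10500 CPM. Lcn2 was at 201.4 CPM in DMSO liver 3 and 60.4 CPM in DMSO liver 1.

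**Figure D4:**
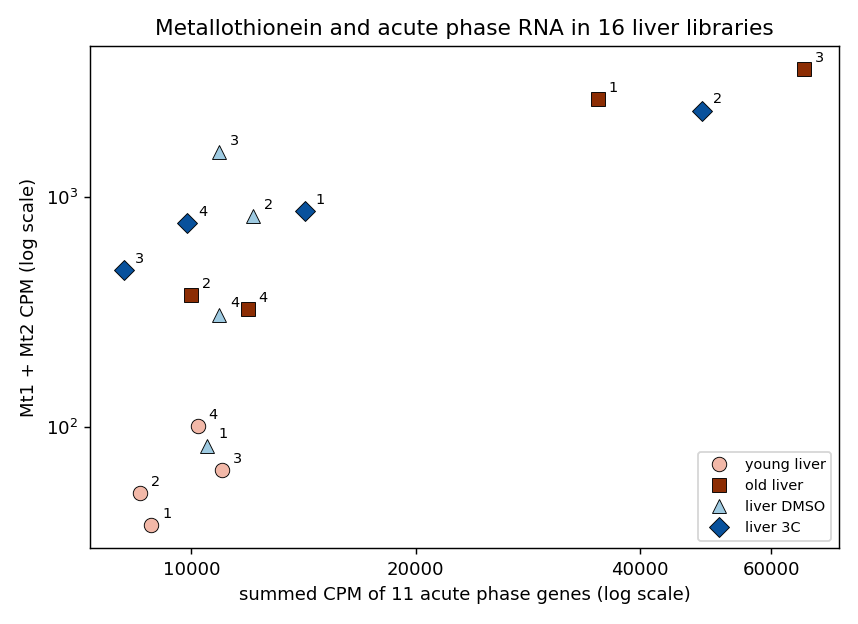
Mt1 plus Mt2 (CPM, log axis) against the summed CPM of the 11 acute phase genes (log axis) in the 16 liver libraries, with replicate numbers beside the points. Old livers 1 and 3 and 3C liver 2 lie at the upper right, and the other 13 livers range from 37.2 to 1567 CPM of metallothionein RNA at an acute phase sum of 8130 to 14200 CPM.

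The genes most like the metallothioneins within groups were found by correlating log2 CPM, after subtraction of the group means, with the mean of Mt1 and Mt2 over the 38 libraries. Of the 14147 genes compared, those with names beginning with Gm or ending in Rik were left out of the ranking. The 5 genes with the highest r among the rest were Fkbp11 (0.763), Lcn2 (0.696), Crybb3 (0.689), Aprt (0.679) and Prtn3 (0.675). Fkbp11 encodes a peptidyl-prolyl isomerase of the endoplasmic reticulum, Aprt a purine salvage enzyme and Prtn3 a protease of neutrophil granules. Over the 16 livers alone, r was 0.858 for Fkbp11 and 0.712 to 0.777 for the other 4. Over the 22 other libraries, r was 0.768 for Aprt and between −0.129 and 0.210 for the other 4. Mtf1 had r = −0.468, Slc30a1 −0.047 and Slc39a14 0.095 over the 38 libraries. The livers share scaling and the few animals with very high metallothionein, so these values describe the libraries only.

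Fkbp11 was high in the 2 DMSO livers with the most metallothionein RNA, at 3.76, 9.81, 14.7 and 3.5 CPM against 82.7, 826.4, 1567 and 307.4 CPM of Mt1 and Mt2 in replicates 1 to 4. Old livers had 10.3, 2.44, 9.67 and 4.72 CPM of Fkbp11 and young livers had 4.44 to 7.15 CPM, so old livers 2 and 4 were not above the young range for this gene as they were for Mt1 and Mt2. Prtn3 was at 103.6 and 127.9 CPM in old livers 1 and 3, at 1.42 and 2.96 CPM in old livers 2 and 4 and at or below 0.527 CPM in young livers.

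Open chromatin at the promoters was read as the strongest ATAC peak within 1 kb of each gene start, by its fold enrichment over background, in 12 libraries. All 5 genes had a peak there in every library. At Mt1, young kidneys had fold enrichments of 5.27, 4.77 and 3.57 and old kidneys 5.04, 6.49 and 5.16. The ages overlapped, with a log2 difference of 0.30 and p = 0.3 in the exact two-sided permutation test, where 3 against 3 cannot go below 0.1. At Mt2, young kidneys had 5.31, 2.98 and 3.70 and old kidneys 3.48, 3.58 and 5.58, a log2 difference of 0.08 (exact permutation p = 0.8).

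In liver, the Mt1 peak was not higher in old animals, whose RNA was higher. Young livers had 3.88, 4.91 and 3.84 and old livers 2.80, 3.06 and 4.69, a log2 difference of −0.29 (exact permutation p = 0.3). At Mt2, young livers had 3.66, 3.71 and 2.93 and old livers 3.32, 3.33 and 3.64, a log2 difference of 0.00 (exact permutation p = 1.0). The labels do not tie ATAC libraries to RNA libraries, so the 2 levels of old liver RNA cannot be matched to peaks. Mtf1 had the highest peaks of the 5 genes, with means of 9.42 ± 3.00 for young kidney and 11.6 ± 2.36 for old kidney (SD, n = 3).

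For Mtf1, Slc30a1 and Slc39a14, the log2 differences with age were 0.34, 0.28 and 0.16 in kidney and 0.01, −0.09 and 0.22 in liver, with exact permutation p from 0.2 to 1.0. Over the 5 genes and both tissues, 0 of 10 comparisons were free of overlap in fold enrichment. By percentile within each library, 3 of 10 were, all with old higher, namely Mt1 and Slc30a1 in kidney, where 24.3% of genes were free of overlap in that direction, and Slc39a14 in liver (15.0%). Among 13159 genes with a peak in all 6 kidney libraries, 16.8% were free of overlap with old higher and 8.55% with old lower. Among 11689 genes in liver the shares were 8.21% and 5.64%. The median difference of all genes, old minus young, was 0.05 in both tissues on the log2 scale. By percentile it was 1.39 points in kidney and 2.17 points in liver. Kidney libraries held 115836 to 128395 peaks in young and 93072 to 108970 peaks in old animals, without overlap. Liver libraries held 123776 to 130409 peaks in young and 112125 to 136849 peaks in old animals. A percentile among peaks depends on these numbers. The methods of the study give a typical read depth for ATAC-seq, but the depth of each single library is unknown.

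**Figure D5:**
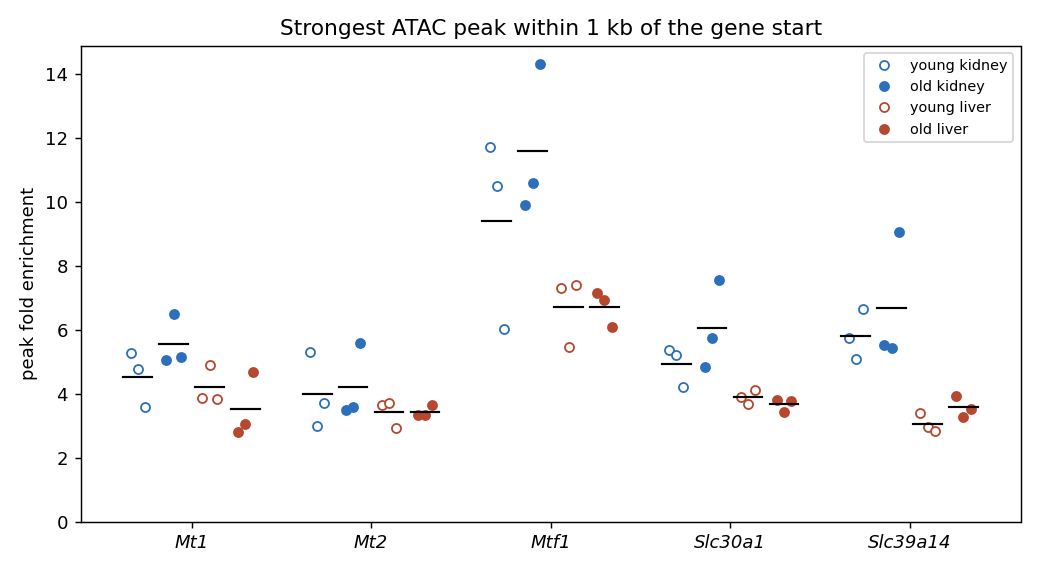
Fold enrichment of the strongest ATAC peak within 1 kb of the start of each gene (linear axis), with open circles for young and filled circles for old libraries. Points are libraries, 3 per group, and bars are means. Old and young overlap for all 5 genes in both tissues on this scale.

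Peaks within 10 kb of Mt1 formed 5 merged regions in kidney and 8 in liver, with 4 of each present in all 6 libraries of the tissue. For Mt2, whose stretch overlaps that of Mt1, the numbers were 6 and 8 regions, again with 4 in all 6 libraries. In kidney, no region near the 5 genes was present in all libraries of 1 age and in none of the other, as 1.52% of all merged kidney regions were for young and 0.323% for old. In liver, 1 region near Mt2 and 1 of 34 near Slc39a14 were present in all young and no old libraries, as were 0.985% of all merged liver regions. Another 1 near Slc39a14 was present in all old and no young libraries, as were 0.543%. These are single regions, and whether a region is present depends also on the number of peaks in a library. Nothing is read from their number.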

How the data were processed

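RNA-seq read counts per gene were deposited by the authors, with Trimmomatic (0.39) for trimming, HISAT2 (2.2.1) for alignment to mm10 and HTSeq (0.12.4) for counting without regard to strand, per the labels and the study's methods. ATAC-seq peak files, 1 per library, came from an alignment with Bowtie2 (2.3.5.1) and peaks from MACS2. They give a fold enrichment (a ratio to background) and −log10 p and −log10 q values as deposited, and MACS2 peaks repeated for several summits were taken once. The study's text does not describe the DMSO and 3C libraries, and their files hold 0 reads in the tallies of unaligned and multiply aligned reads.

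From the counts, CPM was computed over reads in genes. Each comparison was fitted on its own libraries with edgeR 4.0.16 in R 4.3.3 (TMM, filterByExpr with a minimum count of 10, quasi-likelihood test). DESeq2 1.42.0 was the alternative tool here, while the study used DESeq2, in another version, as its main tool. All 5 genes passed the filter in every comparison. A call needed both an adjusted p below 0.05 and a fold above 2 or below 0.5. In simulated counts with 200 genes changed 4-fold, between 199 and 200 were recovered in each of the 6 comparisons. Peak heights were compared with exact permutation tests in SciPy, on fold enrichment, and an alternative kept peaks whose −log10 q reached 5. The members and lists were chosen with earlier results of these data known. Named were the 5 genes, the called zinc genes (at most 6 with the smallest p) and up to 3 called genes per further list. The 5 genes most like Mt1 and Mt2 were also named, leaving out names beginning with Gm or ending in Rik. All called genes of a list are counted. Alternatives were other scalings, filters, thresholds, tools, a replicate block, 1 fit of all 38 libraries and leaving out each library. Equal replicate numbers went with positive correlations of the deviations in young kidney and young liver (0.118, 0.220, 0.105 and 0.459), so the numbers met the criterion for pairing there (every correlation above 0.1), although the labels name no shared mouse. Between old kidney and old liver the correlations were 0.260, 0.227, −0.295 and −0.047, and the criterion was not met. The values given are from the fit without a block, and the blocked fit again called 8 other zinc genes. Depth is 14.24 M to 43.7 M counts per library, and the age and 3C effects are limited by 3 or 4 libraries per group. P-values measure the spread between these libraries, which the labels do not say are separate animals.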

Additional observations from a re-analysis of the deposited data

Results flagged for a closer look

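Mt2 in 3C livers had 1 library far from the other 3, replicate 2 at 1030.0 CPM, and 3C liver 2 also had the highest Mt1 and acute phase RNA of its group. Mtf1 in old livers had 1 low library, replicate 1 at 8.31 CPM, beside 14.8 to 15.5 CPM in the other 3. Slc39a14 in 3C kidneys had 1 high library, replicate 1 at 65.1 CPM. These 3 are the groups of 40, over the 5 genes and 8 groups of 4 libraries, that met Dixon's criterion, which about 1 in 20 groups meets by chance. They are a description of single libraries, and nothing is read from their number.

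The age effect of Slc39a5 was lower in liver than in kidney by a log2 difference of −2.83 (edgeR interaction test, adjusted p = 0.032). It passed the threshold in 7 of 16 fits that left out 1 library, with differences of −3.29 to −2.48. The age effect of Slc39a4 differed by −2.03 (adjusted p = 0.0354) and passed in 6 of 16 such fits, with differences of −2.37 to −1.70. With the replicate block neither passed, at differences of −2.68 for Slc39a5 (adjusted p = 0.0514) and −1.97 for Slc39a4 (adjusted p = 0.0571). Without old kidney 2, the library that carried liver RNA, the adjusted p of Slc39a4 was 0.0503 at a difference of −1.70, and with library totals alone the adjusted p was 0.07 at a difference of −2.04.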

How the results depend on the processing

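In the 5 comparisons within a tissue or cell type, 390 of 390 log2 fold changes of the 5 genes under the alternatives, 1 for each gene and setting, moved by less than 1 SD between libraries. Between young kidney and young liver, library totals alone gave 1.41 for Mt1, 1.28 for Mt2, 0.95 for Mtf1, 1.64 for Slc30a1 and −1.69 for Slc39a14, and the difference of mean log2 CPM, added after the data were seen, gave 1.47, 1.47, 0.95, 1.65 and −1.63. Both leave out the composition factor of TMM. Over all genes, 3618 were higher and 2369 lower in young kidney under TMM, and 7802 and 1240 with library totals. The count of other zinc genes called there was 14 with library totals and 14 by adjusted p alone, against 8.

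In kidney with age, the count of other zinc genes called was 0, and it was 1 with DESeq2, 1 by adjusted p alone, 2 in a fit of all 38 libraries and 0 to 1 with a library left out, the 1 being without old kidney 1. In liver with age it was 0 to 1 with a library left out. Over all genes, edgeR called 267 with age in liver and DESeq2 642, and the cause was not tested. Acute phase genes called in old liver numbered 6, and 0 to 7 with a library left out.

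In the age and 3C comparisons and between old kidney and old liver, replicate numbers did not meet the criterion for pairing, since correlations ran from −0.312 to 0.332. The replicate block gave 0.97 for Mt1 in kidney with age, 3.62 in liver with age and 1.17 in liver with 3C (1.46 for Mt2), left 2 acute phase genes called in old liver and ended the call of Pdk4 in old kidney. It also ended both calls of an age difference between tissues, with adjusted p = 0.0514 for Slc39a5 and 0.0571 for Slc39a4 (edgeR, added after the data were seen). It changed no count of other zinc genes, and in young kidney against young liver, where the correlations were all above 0.1, it gave 0.38 for Mt1 and 0.34 for Mt2.

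The liver ATAC difference of Slc30a1, −0.09, became 0.06 within 500 bp of the start. With 1 library left out, the kidney values of Mt2 (0.08) and Slc39a14 (0.16) went to −0.14 and −0.08 without old kidney 3, the liver value of Mtf1 (0.01) to −0.13 without young liver 2, and the kidney value of Mtf1 (0.34) to 0.04 without young kidney 3. Of 97 alternative peak heights, 1 turned the sign of a difference larger than 1 SD, that of Slc30a1. Depth is unknown for each single ATAC library.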
